A study of Mus musculus with 8 samples.

Results

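The tripartite motif (TRIM) proteins are a family of ubiquitin ligases, and the mouse genes of the family carry the symbol Trim followed by a number. Members were taken as every gene in the deposited expression table whose Ensembl identifier the GENCODE mouse annotation gives as protein-coding with such a symbol and whose mean over the 8 samples was above 0, which gave 68 of 45925 genes with a mean above 0. Of these, 43 had a mean of at least 10 normalized counts (reads divided by a size factor for each sample) and were tested, among 16309 genes tested in all. Most TRIM proteins have a RING domain that passes ubiquitin to a substrate, followed by B-boxes and a coiled coil through which they assemble. Some members lack the RING domain, and the family differs in the domain at the other end that chooses the substrate. Many are made in response to interferon, in macrophages among other cells, and act on viral proteins or on the sensors and kinases that switch interferon and NF-kB signalling on or off. Others repress chromatin, bind microtubules or act at membranes.

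The data are total RNA-seq of bone marrow-derived macrophages of C57BL/6 mice, grown with M-CSF and GM-CSF, in 4 groups of 2 samples. Ctrl macrophages received neither stimulus. LPS macrophages received the bacterial TLR4 ligand LPS at 100 ng/mL and murine IFNγ at 100 U/mL, both for 6 h. Eff macrophages were kept for 16 h with apoptotic NIH-3T3 fibroblasts, 5 for each macrophage, so that they took up the dying cells (efferocytosis). These fibroblasts are a mouse line that carries a caspase-8 domain switched on by a dimerizer, which was present at 10 nM during the co-culture. The labels do not say whether Ctrl and LPS macrophages received the dimerizer, so an effect of it cannot be told apart from that of the apoptotic cells. LPSEff macrophages had this co-culture first, were washed, and then received LPS/IFNγ at the same doses for 6 h. CD45+ cells were isolated before RNA extraction. The samples held 3481288 to 12020918 reads assigned to genes, and 3 reads, taken as the detection floor, were worth 1.74 to 5.71 normalized counts. The labels do not say that the samples of a group came from separate cultures or animals, so p-values measure the spread between these samples, which may be technical.

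All 8 macrophage markers were well above that floor in every sample, and lysozyme (Lyz2) was the most abundant of them, at 54327 to 103975 normalized counts. Markers of T and B cells were near the floor, with Cd3e, Cd3d and Cd3g at 0 to 6.47 and Cd79a and Ms4a1 at 0 to 5.26 normalized counts. Other markers moved with the groups compared. The summed normalized count of the 6 dendritic cell markers was 2037 and 2587 in Ctrl and 8284 and 16013 in LPS, with 1314 and 1621 in Eff and 6688 and 6483 in LPSEff. Ccr7 was the most abundant of them, Siglech was at 0 in Ctrl replicate 1 and Cd209a in both LPSEff samples. Of the 4 tested, Ccr7 (2.41) and Xcr1 (2.63) were called higher in LPS than in Ctrl on the log2 scale, Ccr7 alone (2.29) in LPSEff than in Eff, and Flt3 and Zbtb46 in neither. The 4 neutrophil markers summed to 331 and 281 in Ctrl and 629 and 613 in LPS, with 688 and 712 in Eff and 1040 and 987 in LPSEff. S100a8 made up most of this and was called higher in LPS (0.98) and in Eff (1.24) than in Ctrl, while Mpo was not called and Ly6g and Elane were too low to test. The T cell gene Lck rose from 3.81 and 5.78 in Ctrl to 29.7 and 49.8 in LPS and was called in naive (2.79) and efferocytic (2.15) macrophages. The part of these cells in the changes of the family was not tested.

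The share of all normalized counts that fell on the 68 members was 0.156% and 0.162% in the Ctrl samples and 0.2497% and 0.271% in the LPS samples. The Eff samples had 0.169% and 0.151%, and the LPSEff samples 0.249% and 0.244%. Both stimulated groups thus lay above both unstimulated groups in every sample. Per kb of exon, which allows genes to be compared, members with a role in the interferon response made up 30.03% and 28.8% of the summed level of the family in Ctrl and 68.7% and 70.4% in LPS. The corresponding shares were 25.2% and 28.0% in Eff and 71.6% and 71.6% in LPSEff, so the make-up of the family changed with LPS/IFNγ. These are descriptions, since an exact permutation test of 2 against 2 samples cannot go below p = 0.333.

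In Ctrl the highest levels belonged to Trim28, the co-repressor recruited by KRAB zinc finger proteins, at 246 and 267 normalized counts per kb, and to Trim25, a ligase for the RNA sensor RIG-I, at 206 and 224 per kb. Trim35, known for acting on IRF7, followed at 126 and 193 per kb, and Trim8, a regulator of STAT and TAK1 signalling, at 122 and 90.3 per kb. Trim41 had 78.2 and 90.5 per kb. The samples of Trim8 and Trim41 overlapped, whereas Trim28, Trim25 and Trim35 were each separate from the next gene in the order. In LPS the order began with Trim25 at 701 and 732 per kb, then Trim30a at 395 and 594, Trim30c at 442 and 456, and Trim30d at 327 and 422, and Trim28 had moved to the seventh place with 147 and 128 per kb. Trim30a overlapped Trim30c and Trim30d in LPS. Trim30d also overlapped the next gene, Trim35 (294 and 448 per kb), and Trim28 overlapped the next gene, Trim26 (111 and 132 per kb). These places are therefore not separate.

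The comparison of LPS with Ctrl asks how naive macrophages responded to inflammatory stimulation. Of the 43 tested members, 14 (32.6%) were higher in LPS at an adjusted p under 0.05 in limma, adjusted over all genes tested, beside 12.4% of all genes. A further 8 (18.6%) were lower, beside 11.6% of all genes. The comparison of LPSEff with Eff asks the same of macrophages that had first taken up apoptotic cells. There, 14 members (32.6%) were higher, beside 10.7% of all genes, and 5 (11.6%) were lower, beside 8.95% of all genes, which is close to that background. The median log2 fold change of the tested members was 0.06 in naive and 0.07 in efferocytic macrophages, against -0.01 and 0.01 over all genes tested, and both medians of the members turned negative when samples were scaled to equal totals. All fold changes are of normalized count + 1 and understate the change of low genes. The comparisons share samples and 1 estimate of the spread, so their values are given side by side and do not stand as independent evidence. In bulk RNA, fewer cells of a type and less RNA per cell cannot be told apart.

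**Figure D1:**
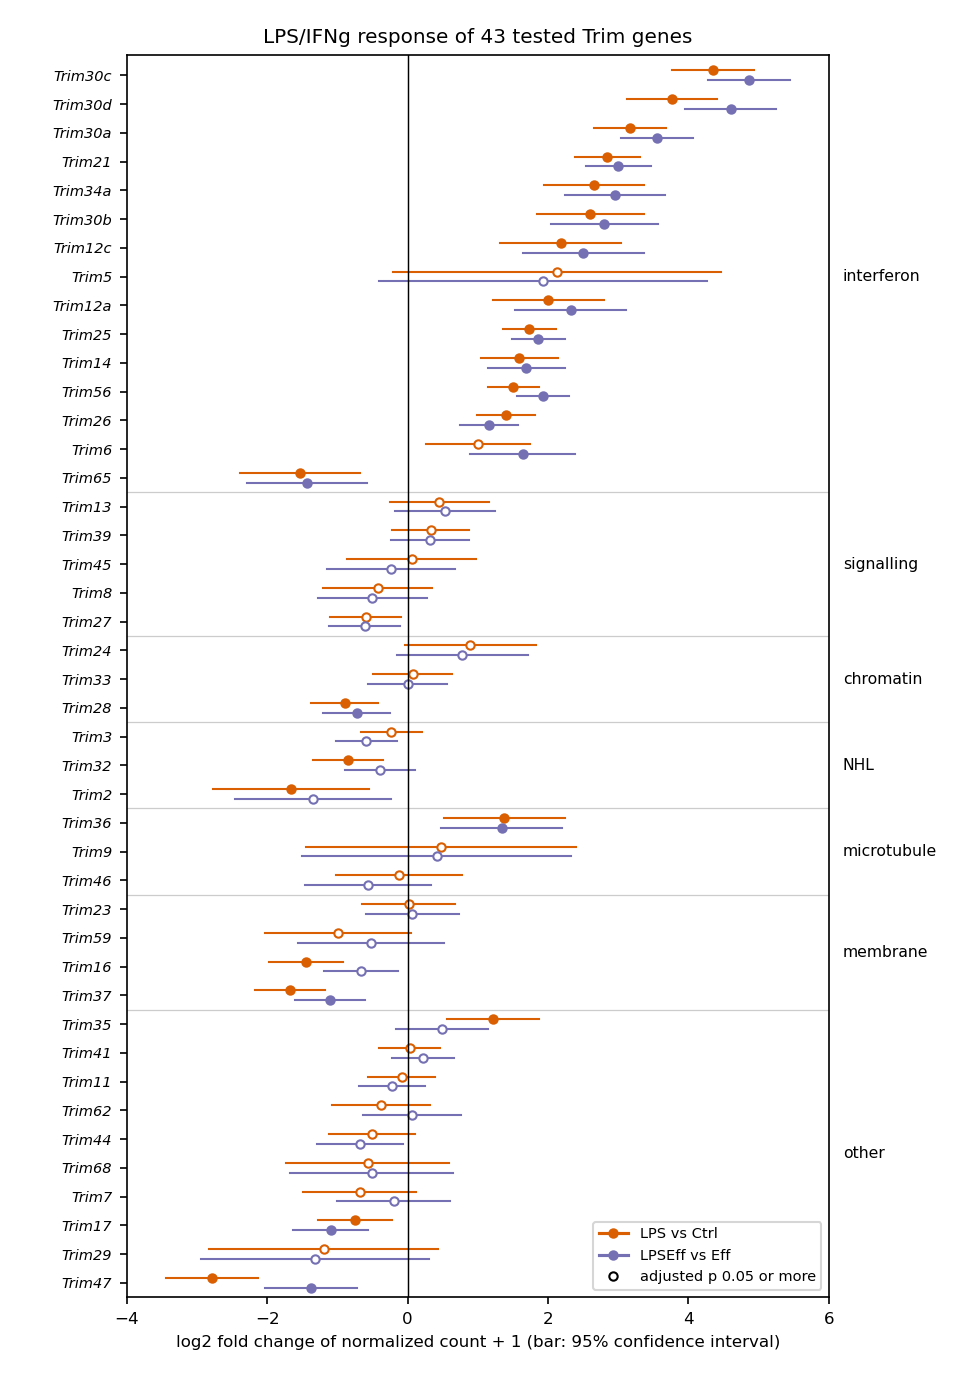
Log2 fold change of normalized count + 1 for the 43 tested Trim genes, grouped by role, in naive (LPS vs Ctrl, orange) and efferocytic (LPSEff vs Eff, purple) macrophages; bars are 95% confidence intervals from limma and filled points have an adjusted p under 0.05. All called rises but those of Trim36 and Trim35 belong to the interferon role, whose 1 called fall is Trim65.

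Of the interferon list, 15 of 17 members were tested. In LPS against Ctrl 12 rose (80.0%) and 1 fell (6.67%), beside 12.4% and 11.6% of all genes. In LPSEff against Eff, 13 rose (86.7%) and 1 fell (6.67%), beside 10.7% and 8.95% of all genes. The share that fell was thus not above that of all genes in either. The list holds members with a role in the interferon response and was chosen with earlier results of these data known. Its counts are therefore descriptions and no test of that role. The median log2 fold change of these 15 was 2.13 in naive and 2.33 in efferocytic macrophages, against -0.40 and -0.44 for the 28 tested members of other roles. The median in naive macrophages is the value of Trim5, which was not called and passed the filter through its stimulated samples, so these medians are descriptions.

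The 3 largest rises were those of Trim30c, Trim30d and Trim30a, which with Trim30b are rodent relatives of each other that lie side by side. Trim30c had 45.7 and 29.5 normalized counts in Ctrl and 758 and 782 in LPS, with 26.3 and 29.6 in Eff and 766 and 929 in LPSEff. Trim30d, whose protein is known for restricting tick-borne flaviviruses, had 135 and 78.1 in Ctrl and 1244 and 1607 in LPS, with 54.3 and 44.5 in Eff and 1227 and 1209 in LPSEff. For Trim30a, known for ending NF-kB signalling by removing TAB2 and TAB3, the values were 562 and 496 in Ctrl and 3867 and 5824 in LPS, with 424 and 391 in Eff and 4574 and 5013 in LPSEff. Each stimulated sample was several times above every unstimulated sample for these genes, and the Eff samples lay below the Ctrl samples for Trim30d and Trim30a. The log2 fold changes in naive and efferocytic macrophages were 4.35 ± 0.26 (SE) and 4.87 ± 0.26 for Trim30c, with limma adjusted p of 3.72e-05 and 2.03e-05. They were 3.77 ± 0.28 and 4.60 ± 0.28 for Trim30d, with adjusted p of 9.91e-05 and 3.56e-05. For Trim30a they were 3.17 ± 0.22 and 3.55 ± 0.22, with adjusted p of 7.91e-05 and 3.85e-05. Trim30b, the least abundant of them, had 19.0 and 30.7 normalized counts in Ctrl and 137 and 169 in LPS, and its log2 fold changes were 2.60 ± 0.33 and 2.80 ± 0.33.

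These genes belong to the largest genomic cluster of members, 10 genes with starts under 300 kb apart at chr7:103868000-104157107 (GRCm39). In genomic order they are Trim6, Trim34a, Trim5, Trim12a, Trim34b, Trim12c, Trim30b, Trim30c, Trim30a and Trim30d. Of the 9 that were tested, 7 rose in naive (77.8%) and 8 in efferocytic macrophages (88.9%), beside 12.4% and 10.7% of all genes. None of them fell, which among 9 genes is near the 11.6% and 8.95% of all genes that did. Trim34a rose by 2.66 ± 0.31 and 2.96 ± 0.31 on the log2 scale, Trim12c by 2.18 ± 0.37 and 2.51 ± 0.37, and Trim12a by 2.00 ± 0.34 and 2.33 ± 0.34. Trim12a, Trim12c and Trim5 are mouse relatives of the primate restriction factor TRIM5. Trim5 itself had 1.90 and 15.0 normalized counts in Ctrl and 22.0 and 37.6 in LPS, a log2 fold change of 2.13 ± 1.02 that was not called (adjusted p = 0.178), and its replicates were far apart in every group. Trim6, which makes free ubiquitin chains that activate the kinase IKKε, had 32.4 and 24.9 in Ctrl and 68.6 and 48.7 in LPS, with 18.4 and 20.5 in Eff and 64.1 and 60.9 in LPSEff. Its stimulated samples were above its unstimulated ones throughout. The rise was called in efferocytic macrophages (1.64 ± 0.32, adjusted p = 0.00972) and missed the threshold in naive ones (1.00 ± 0.32, adjusted p = 0.0575), and the difference between the log2 fold changes, 0.64 ± 0.46, was not called (adjusted p = 1.00).

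Several cluster members have near copies of each other's sequence. Of the 50-base windows of its transcripts, Trim34a shared 38.7%, Trim5 38.5%, Trim12c 36.4%, Trim30a 17.4%, Trim30d 8.10% and Trim12a 7.74% with transcripts of other genes. Reads from such stretches map to more than 1 gene and are left out by the counting the authors used, so the counts of these genes are uncertain. Trim30c (0.66%) and Trim30b (1.21%) were nearly free of such windows.

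**Figure D2:**
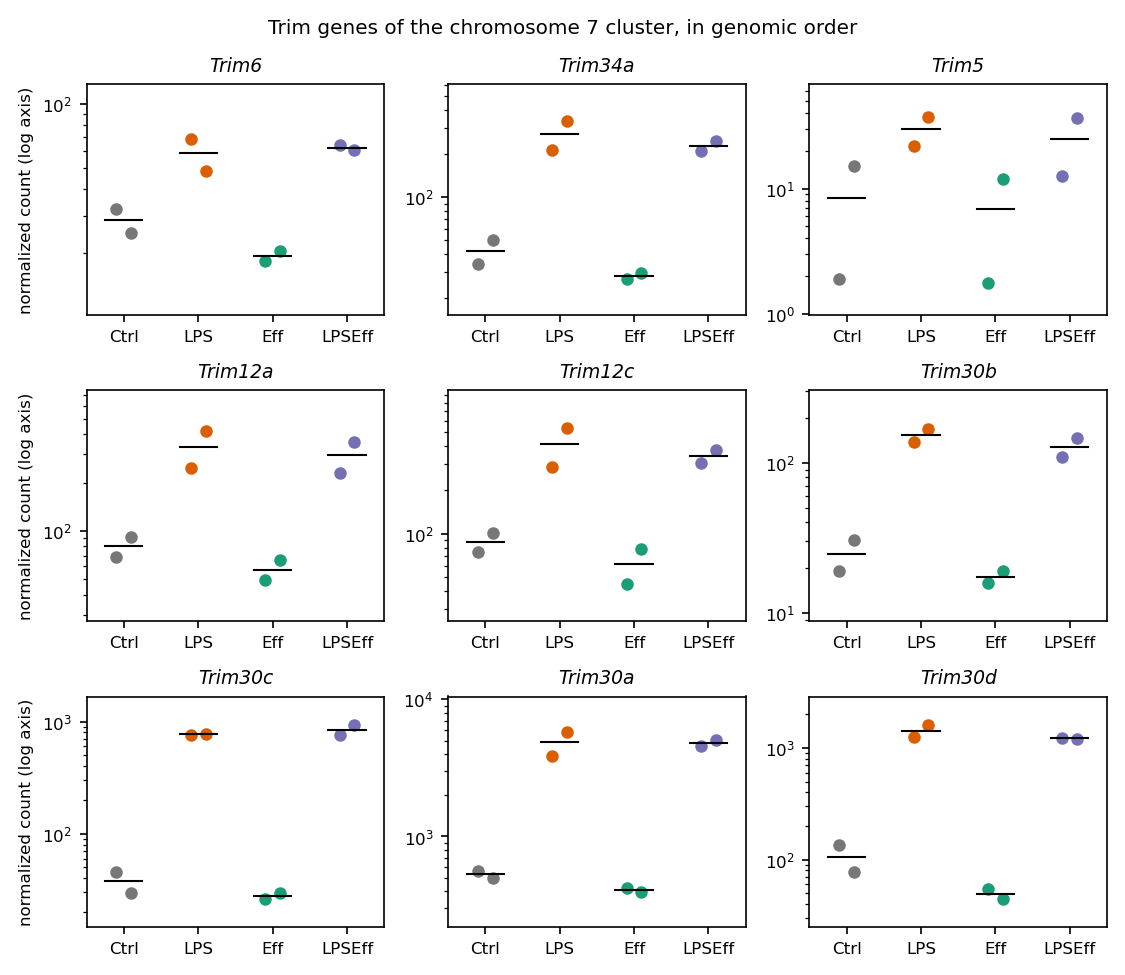
Normalized counts (log axis) of the 9 tested Trim genes of the chromosome 7 cluster, 1 panel a gene in genomic order, with 1 point for each sample and a line at the mean of each group of 2. In each panel but that of Trim5 both stimulated groups lie above both unstimulated groups, and Trim5 was called in neither comparison.

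Interferon-related members elsewhere in the genome rose as well. Trim21, the antibody receptor of the cytosol, had 109 and 127 normalized counts in Ctrl and 824 and 876 in LPS, with 76.2 and 91.7 in Eff and 625 and 736 in LPSEff. Trim25 had 1188 and 1287 in Ctrl and 4034 and 4212 in LPS, with 1269 and 1318 in Eff and 4871 and 4549 in LPSEff. Trim56, a ligase of the cGAS and STING pathway, had 402 and 395 in Ctrl and 1158 and 1109 in LPS, with 387 and 370 in Eff and 1487 and 1407 in LPSEff. In all of them the replicates lay close together and no stimulated sample overlapped an unstimulated one. The log2 fold changes in naive and efferocytic macrophages were 2.84 ± 0.20 and 3.004 ± 0.20 for Trim21, 1.74 ± 0.16 and 1.86 ± 0.16 for Trim25, and 1.51 ± 0.16 and 1.93 ± 0.16 for Trim56, with limma adjusted p between 5.32e-05 and 4.90e-04. Trim14, an adaptor at MAVS, rose by 1.59 ± 0.24 and 1.69 ± 0.24. Trim26, which acts on IRF3, rose by 1.41 ± 0.18 and 1.16 ± 0.18. 

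Trim65, a ligase for the RNA sensor MDA5, went the other way. It had 149 and 122 normalized counts in Ctrl and 47.9 and 43.7 in LPS, with 172 and 143 in Eff and 85.5 and 38.1 in LPSEff. Both stimulated groups lay below both unstimulated ones, while LPSEff replicate 2 was as low as the LPS samples. Its log2 fold changes were -1.54 ± 0.37 (adjusted p = 0.0197) and -1.44 ± 0.37 (adjusted p = 0.0292), and the latter was -0.86 without LPSEff replicate 2 (adjusted p = 0.122).

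Promoters of the members were taken from RefSeq (GRCm38.p6, 250 bases before and 50 after the start), where 53 members were found, 32 of them tested. The core of the interferon-stimulated response element, GAAANNGAAA on either strand, was present in at least 1 promoter of 9 of the 32 tested members (28.1%) and of 3.99% of the 27025 genes with a RefSeq promoter, whether tested here or not. By response, it was in 7 of 11 members that rose in LPS against Ctrl (63.6%), in 1 of 5 that fell (20.0%) and in 1 of 16 that were not called (6.25%). In the largest genomic cluster 6 of 10 members held it (60.0%), some of them in windows that are near copies of each other. These members are therefore not independent counts. The core of the IFNγ-activated sequence, TTCNNNGAA, was in 3 of 32 tested members (9.38%), Trim30c, Trim45 and Trim46, beside 9.55% of the same 27025 genes. A match is a description of letters and does not show that a factor binds there. The windows of 30 bases that hold the first core in these 9 members are shown to compare the flanking bases, with the matching bases in capitals, and Trim30a has such a window in 2 promoters. Trim2 fell in LPS, Trim5 was not called, and the others rose.
Trim2, chr3:84212791-84212820, minus strand: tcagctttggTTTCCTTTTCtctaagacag
Trim34a, chr7:104244457-104244486, plus strand: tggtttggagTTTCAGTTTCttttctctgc
Trim5, chr7:104288136-104288165, minus strand: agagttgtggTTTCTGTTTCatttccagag
Trim12a, chr7:104315466-104315495, minus strand: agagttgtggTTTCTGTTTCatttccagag
Trim12c, chr7:104353359-104353388, minus strand: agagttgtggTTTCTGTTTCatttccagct
Trim30a, chr7:104465210-104465239, minus strand: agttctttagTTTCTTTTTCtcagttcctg
Trim30a, chr7:104446104-104446133, minus strand: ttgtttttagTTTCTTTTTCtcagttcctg
Trim30d, chr7:104507871-104507900, minus strand: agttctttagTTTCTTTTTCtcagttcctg
Trim21, chr7:102565447-102565476, minus strand: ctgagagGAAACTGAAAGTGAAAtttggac
Trim26, chr17:36836979-36837008, plus strand: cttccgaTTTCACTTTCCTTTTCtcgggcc

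The first Trim30a window and that of Trim30d had 0 mismatches to each other. Trim30c, with the largest rise of the family, held no match to this core in its promoter. The stretch of 30 bases upstream of its start that was most like the Trim30d window differed from it at 5 positions, 1 of them within the 10 bases that align with the core, which are in capitals.
Trim30c, chr7:104400896-104400925, minus strand: agttctgtggTTCCTTTTTCtcagttccac
The 250 bases before the starts of Trim30c and Trim30d are given below their names with matches to either core in capitals, TTCNNNGAA in Trim30c and GAAANNGAAA (read on the other strand) in Trim30d.
Trim30c, chr7:104400779-104401028, minus strand: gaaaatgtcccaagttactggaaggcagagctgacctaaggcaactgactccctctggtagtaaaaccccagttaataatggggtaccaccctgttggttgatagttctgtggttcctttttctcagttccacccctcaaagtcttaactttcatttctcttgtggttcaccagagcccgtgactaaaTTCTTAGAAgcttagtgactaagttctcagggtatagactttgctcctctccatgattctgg
Trim30d, chr7:104507850-104508099, minus strand: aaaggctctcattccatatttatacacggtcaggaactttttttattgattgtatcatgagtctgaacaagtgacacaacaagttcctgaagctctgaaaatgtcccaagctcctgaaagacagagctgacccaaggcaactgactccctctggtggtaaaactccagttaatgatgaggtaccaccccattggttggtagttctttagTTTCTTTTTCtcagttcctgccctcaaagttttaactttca

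Members that act on NF-kB, STAT and death receptor signalling outside the interferon list were not called in either comparison, though Trim27 and Trim8 were called under other settings given below. Of 8 such members 5 were tested, and 0 called among 5 genes is near the 23.97% and 19.7% of all genes that were. Trim27, a ligase that acts on TBK1 and NF-kB signalling, had 280 and 317 normalized counts in Ctrl and 215 and 180 in LPS, with 433 and 333 in Eff and 273 and 226 in LPSEff. The groups of each of these comparisons did not overlap, but its log2 fold changes of -0.60 ± 0.22 and -0.61 ± 0.22 missed the threshold (adjusted p = 0.0880 and 0.0917). Trim8 had 571 and 422 in Ctrl and 486 and 275 in LPS, and these overlapped. It had 665 and 397 in Eff and 382 and 344 in LPSEff, which did not overlap, with a log2 fold change of -0.50 ± 0.34 (adjusted p = 0.360). The log2 fold changes of Trim13, a ligase of the endoplasmic reticulum, were 0.45 ± 0.31 and 0.54 ± 0.31. Those of Trim39 were 0.33 ± 0.24 and 0.32 ± 0.24, and those of Trim45 were 0.06 ± 0.40 and -0.23 ± 0.40.

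Among the chromatin regulators, Trim28 fell. It had 1061 and 1153 normalized counts in Ctrl and 636 and 554 in LPS, with 1479 and 1069 in Eff and 818 and 709 in LPSEff. All stimulated samples lay below all unstimulated ones. The log2 fold changes were -0.90 ± 0.21 (adjusted p = 0.0166) and -0.72 ± 0.21 (adjusted p = 0.0437). Its relatives Trim24 and Trim33, co-regulators of nuclear receptors and of SMAD signalling, were not called, with log2 fold changes of 0.89 ± 0.41 and 0.07 ± 0.24 in naive macrophages. The LPS samples of Trim24 were far apart, at 225 and 574 normalized counts. Its log2 fold change in naive macrophages was 0.34 between the samples numbered 1 and 1.44 between those numbered 2.

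The members Trim2, Trim32, Trim36, Trim37 and Trim17 are described because they were called, a choice made after their values were seen. Of the members with NHL repeats, Trim2, a ligase for neurofilament light chain, had 101 and 171 normalized counts in Ctrl and 33.6 and 49.8 in LPS, and Trim32 had 114 and 128 in Ctrl and 69.8 and 64.0 in LPS. Both fell in naive macrophages, by 1.66 and 0.84 on the log2 scale, and were not called in efferocytic ones (-1.35 ± 0.48 and -0.39 ± 0.22), with differences of 0.31 ± 0.68 and 0.46 ± 0.31 that were not called. The other tested member with these repeats, Trim3, was not called (-0.23 ± 0.19 and -0.59 ± 0.19). Of the membrane group, Trim37, a ligase of peroxisomes and centrosomes, had 402 and 504 in Ctrl and 129 and 153 in LPS, with 361 and 436 in Eff and 170 and 198 in LPSEff. It fell in both, with log2 fold changes of -1.67 ± 0.22 (adjusted p = 0.00128) and -1.11 ± 0.22 (adjusted p = 0.00939). Trim16, which marks damaged lysosomes, had 168 and 148 in Ctrl and 59.5 and 54.8 in LPS, with 119 and 103 in Eff and 73.6 and 66.0 in LPSEff. Its fall was called in naive (-1.45 ± 0.23) and not in efferocytic macrophages (-0.66 ± 0.23, adjusted p = 0.0844), and the difference of 0.78 ± 0.33 was not called. The other tested members of this group, Trim23 (0.02 ± 0.29 and 0.07 ± 0.29) and Trim59 (-0.996 ± 0.45 and -0.52 ± 0.45), were not called. Trim36, a microtubule-binding member, rose by 1.38 ± 0.38 and 1.34 ± 0.38, and the other 2 tested members of that group, Trim9 and Trim46, were not called.

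Among members with other or less settled roles, Trim47 fell most, and its values are given below with the effect of efferocytosis. Trim35 had 868 and 1335 normalized counts in Ctrl and 2032 and 3093 in LPS, with 1336 and 1195 in Eff and 1538 and 2047 in LPSEff. The rise was called in naive (1.22 ± 0.29, adjusted p = 0.0174) and not in efferocytic macrophages (0.49 ± 0.29, adjusted p = 0.287), and the difference of -0.73 ± 0.41 was not called. Trim17 fell by 0.75 and 1.10 on the log2 scale, and 24.3% of its exon bases lie in exons of the histone gene H2ac25 on the same strand, so its count is uncertain. The other tested members, Trim7, Trim11, Trim29, Trim41, Trim44, Trim62 and Trim68, were not called.

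The calls differ in how they bear the loss of a sample. In naive macrophages 12 of 14 rises and 3 of 8 falls (Trim16, Trim37 and Trim47) were called with any 1 of the 8 samples left out, and in efferocytic ones 12 of 14 rises and 0 of 5 falls. The rise of Trim35 was lost without Ctrl replicate 1 (adjusted p = 0.115) or LPS replicate 2 (0.0809), and that of Trim6 without Eff replicate 1 (0.0600) or LPSEff replicate 1 (0.0627). Trim36 was lost in naive macrophages without either Ctrl replicate (0.171 and 0.0593) or LPS replicate 2 (0.134), in efferocytic ones without either Ctrl or LPSEff replicate or Eff replicate 1 (0.0516 to 0.203), and in both with samples scaled to equal totals (0.0565 and 0.0759). In naive macrophages Trim2, Trim32 and Trim65 were lost without any 1 of the Ctrl or LPS replicates (0.0568 to 0.208). Trim28 was lost without either Ctrl replicate or LPS replicate 2 (0.0657 to 0.0925), and Trim17 without any 1 of the Ctrl, LPS or LPSEff replicates (0.0704 to 0.190). In efferocytic macrophages Trim47 was lost without any 1 of the Eff or LPSEff replicates (0.0520 to 0.0719). Trim37 was lost without Eff replicate 2 or LPSEff replicate 1 (0.0723 and 0.0673), and Trim65 without either Eff replicate or LPSEff replicate 2 (0.0859 to 0.144). Trim17 was lost without Eff replicate 1 or either LPSEff replicate (0.0545 to 0.0882), and Trim28 without either Ctrl or LPSEff replicate or Eff replicate 1 (0.0702 to 0.266). All of these values are adjusted p from limma. Calls were also lost under other settings. Trim28 in efferocytic macrophages was lost with edgeR (0.0609), in a fit of only the groups compared (0.0737) and with all genes of a mean above 0 (0.0992). Trim32 in naive macrophages was lost with DESeq2 (0.0702) and in the same limma fits (0.0871 and 0.0767). Trim65 in efferocytic macrophages was lost with edgeR (0.05002) and in a fit of only the groups compared (0.0583), as was Trim36 in the latter (0.0538). Trim17 in naive macrophages was lost with edgeR (0.0614), DESeq2 (0.0716) and quantile scaling (0.0571), and in the same limma fits (0.0576 and 0.105). The log2 fold change of Trim36 in efferocytic macrophages was 0.81 without Eff replicate 1.

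Calls were gained in a limma fit with the replicate number as a block, which takes samples of equal number as pairs. In naive macrophages these were Trim5 (adjusted p = 0.00826), Trim6 (0.0193), Trim24 (0.0142), Trim27 (0.0177), Trim44 (0.0488) and Trim59 (0.00268). In efferocytic macrophages they were Trim2 (0.000862), Trim3 (0.0145), Trim5 (0.0153), Trim8 (0.0473), Trim16 (0.0233), Trim24 (0.0292), Trim27 (0.0177) and Trim44 (0.0141). With samples scaled to equal totals, the falls of Trim3 (0.0319), Trim7 (0.0343), Trim27 (0.0137), Trim44 (0.0166) and Trim59 (0.0326) were called in naive macrophages. In efferocytic ones this scaling called those of Trim2 (0.0174), Trim3 (0.00466), Trim16 (0.0105), Trim27 (0.0114), Trim32 (0.0218) and Trim44 (0.00717). DESeq2 called Trim24 in naive (0.0374) and Trim2 in efferocytic macrophages (0.0266). In the latter, quantile scaling called Trim44 (0.0484) and a filter at a mean of 50 called Trim3 (0.0414). Where these members are described as not called, that holds for the main limma fit. That fit used all 8 samples without the block, the authors' scaling and the filter at a mean of 10. Leaving out LPS replicate 1 added a rise in naive macrophages among members not called in it. Over all 16309 genes the replicate block gave 3337 higher and 3380 lower in LPS and 3101 higher and 2932 lower in LPSEff.

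The direction of a family depends on how samples are scaled, since the summed normalized count was 8470249 to 9489294 in stimulated and 6587737 to 6951788 in unstimulated samples. Scaling to equal totals shifted the median of all genes by about -0.40 in naive and -0.44 in efferocytic macrophages and turned the median of the tested members to -0.33 and -0.37. With it, 13 members were higher and 13 lower in LPS, and 13 higher and 11 lower in LPSEff. Over all 16309 genes it gave 1420 higher and 4315 lower in LPS and 1216 higher and 4362 lower in LPSEff, so the share of members that fell was near that of all genes. Over all genes, the share of calls that were higher moved from 51.5% to 24.8% and from 54.6% to 21.8%. The median of the interferon list stayed positive, at 1.78 and 1.88, and no called member changed direction under this or quantile scaling.

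Efferocytosis without LPS/IFNγ was tested by comparing Eff with Ctrl. No member was called by limma (0 of 43, beside 0.251% of all genes), and edgeR and DESeq2 on the recovered reads also called 0. With the replicate number as a block in the limma fit, which takes equal numbers as pairs, Trim30d was called (adjusted p = 0.0413), and the labels do not say whether they are pairs. With this block, 9 of 43 members had an unadjusted p under 0.05 in limma. The share of all genes at that p with the block is not given here, so the 9 has no background. The block also raised the calls over all genes from 41 to 436. Without the block 3 of 43 members had such a p, near the 1000 of 16309 over all genes. These 3 were Trim30d, Trim7 and Trim21, with log2 fold changes of -1.05 ± 0.28, -1.06 ± 0.35 and -0.49 ± 0.20. Their limma adjusted p without the block was 0.368, 0.555 and 0.770. For Trim30d the value was -0.66 without Ctrl replicate 1 (adjusted p = 0.999) and -1.44 without Ctrl replicate 2 (0.169). Trim7 had 74.3 and 67.7 normalized counts in Ctrl and 30.7 and 36.7 in Eff. The median log2 fold change of the 15 tested interferon members was -0.38, that of the other 28 was 0.02, and that of all genes -0.01. All 9 tested cluster members were lower in Eff by their mean log value, with a median of -0.47, and without the block none was called. Of all genes tested, 7904 of 16309 were higher in Eff by this value. The 9 genes are neighbours measured in the same samples, and several share sequence, so they are not separate observations.

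Prior efferocytosis under stimulation was tested by comparing LPSEff with LPS. Trim47 was the 1 member called (1 of 43, beside 0.773% of all genes). It had 156 and 170 normalized counts in Ctrl and 29.7 and 17.3 in LPS, with 230 and 243 in Eff and 88.7 and 92.6 in LPSEff. The 4 groups did not overlap, and it was lower with LPS/IFNγ in both settings and higher in LPSEff than in LPS. The log2 fold changes were -2.79 ± 0.29 in LPS against Ctrl (adjusted p = 4.18e-04), -1.37 ± 0.29 in LPSEff against Eff (adjusted p = 0.0120) and 1.95 ± 0.29 in LPSEff against LPS (adjusted p = 0.0314). In Eff against Ctrl the log2 fold change of Trim47 was 0.54 ± 0.29 and was not called (adjusted p = 0.953). The call in LPSEff against LPS was lost in a fit of these groups alone (adjusted p = 0.166) and without any 1 sample other than LPS replicate 1 (adjusted p = 0.0571 to 0.256), while the log2 fold change stayed between 1.58 and 2.33. Trim47 lies next to Trim65 on chromosome 11 with 8.20% of its exon bases in exons of that gene on the same strand. Trim32 came next, with 129 and 112 normalized counts in LPSEff against 69.8 and 64.0 in LPS, and was not called (0.84 ± 0.22, adjusted p = 0.186) unless the replicate number was a block, when it (adjusted p = 0.0307) and Trim47 were called. Of the interferon members 0 of 15 were called, and their median log2 fold change was -0.15, against 0.00 over all genes.

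The apoptotic cells were fibroblasts, and the summed level of fibroblast markers was higher with efferocytosis in the same samples, though not all of the markers were. The summed normalized count of the 11 markers was 76.2 and 153 in Ctrl and 378 and 523 in LPS, with 1602 and 3033 in Eff and 4760 and 4038 in LPSEff. Of the 9 tested, 4 were called higher in Eff than in Ctrl and 5 in LPSEff than in LPS, and 0 lower. Pdgfrb went another way, with 15.2 and 11.6 in Ctrl and 246 and 245 in LPS, with 19.3 and 38.1 in Eff and 82.3 and 157 in LPSEff. It was called higher in LPS than in Ctrl (4.11) and not called in LPSEff against LPS (-1.10). Thy1 was not called, with -0.28 in Eff against Ctrl and -0.45 in LPSEff against LPS. The most abundant were Col1a2, with 7.62 and 39.9 in Ctrl and 1913 and 1369 in LPSEff, and Col6a3, with 0 and 8.10 in Ctrl and 1514 and 1163 in LPSEff. Lum was near the floor in all groups, at 0 to 3.81, and Col6a3, Postn and Dcn were at 0 in Ctrl replicate 1. The part of fibroblast RNA in the level of Trim47 was not tested.

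**Figure D3:**
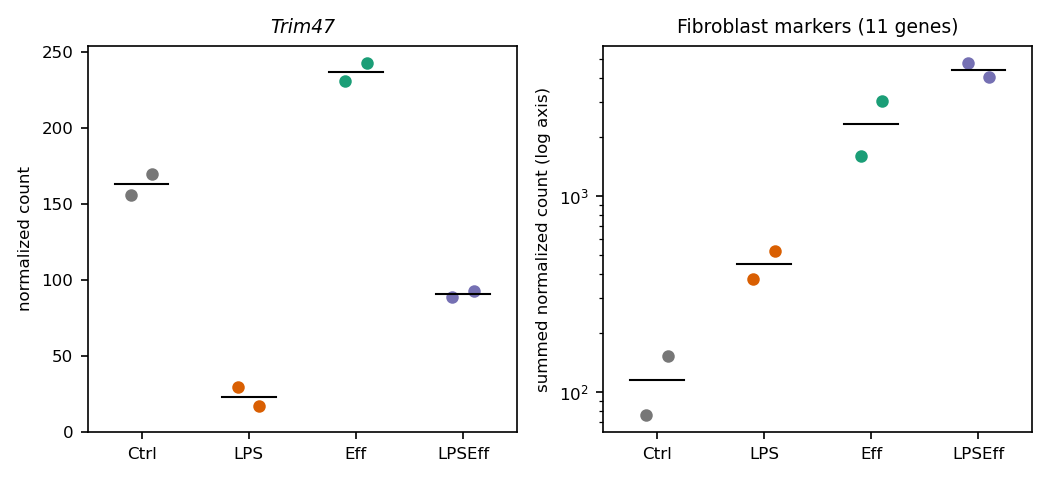
Left, normalized count of Trim47 in each sample; right, summed normalized count (log axis) of the 11 fibroblast markers in the same samples, with a line at the mean of each group of 2. Trim47 is lowest in LPS (29.7 and 17.3) and the marker sum is lowest in Ctrl (76.2 and 153).

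The difference between the response of efferocytic and naive macrophages was tested for each gene as an interaction. limma called 0 members and 0% of all genes, and edgeR and DESeq2 also called 0 members. At an unadjusted p under 0.05 there were 2 of 43, beside 311 of 16309 over all genes. They were Trim47 (1.42 ± 0.40) and Trim16 (0.78 ± 0.33), both with an adjusted p of 1.00. The 95% confidence interval for Trim47 was 0.49 to 2.34. Trim30d followed with 0.83 ± 0.40 and an interval of -0.08 to 1.75, and its value was 0.44 without Ctrl replicate 1. In this fit, which ignores the replicate number, a larger response of Trim30d in efferocytic macrophages could not be told from none. With the replicate number as a block in limma, 6 of 43 members had an unadjusted p under 0.05 and 0 were called. The share of all genes at that p with the block is not given here. A p that misses the threshold does not show that the responses were alike.

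Genes that work with these ligases were counted from fixed lists, each value in LPS against Ctrl unless stated. The shares over all genes, 12.4% higher and 11.6% lower in naive and 10.7% and 8.95% in efferocytic macrophages, are the background of each count. Of 4 genes that encode TRIM proteins under other symbols, 3 rose, in naive as in efferocytic macrophages, among them Mefv, which encodes pyrin (4.25 ± 0.55), and Pml, the organiser of nuclear bodies (2.49 ± 0.26). Of 14 genes of the RIG-I and cGAS pathway, 10 rose and 1 fell, with the largest rises in Irf7 (5.25 ± 0.49) and Zbp1 (4.28 ± 0.36), and the fall was that of the adaptor Mavs (-1.02 ± 0.21). In LPSEff against Eff, 10 rose and 0 fell. Of 12 genes of interferon receptors and their signalling, 9 rose in naive and 10 in efferocytic macrophages, among them Irf1 (3.64 ± 0.24). Of 14 genes of TAK1 and NF-kB signalling, 5 rose and 2 fell, in efferocytic macrophages 6 and 2, and the falls (14.3%) were near the background. Nlrp3 (2.90 ± 0.28), a substrate of TRIM proteins, and the kinase Ikbkb (1.12 ± 0.21) rose, and Tab1 (-0.72 ± 0.22) and Tlr4 (-0.70 ± 0.21) fell. The call of Tab1 (adjusted p = 0.0451 in limma) was lost without any 1 of the 8 samples (0.0506 to 0.188) and with edgeR (0.0635), DESeq2 (0.119), quantile scaling (0.108) and fits of only the groups compared (0.113) or of all genes with a mean above 0 (0.131). That of Tlr4 (0.0445) was lost without any 1 of the Ctrl, LPS or Eff replicates (0.0615 to 0.163) and in the same fits (0.0677 and 0.0964). Mavs was lost without either Ctrl replicate (0.0587 and 0.0504), and Ikbkb without Ctrl replicate 1 (0.0545). Without Ctrl replicate 1, 24 genes of all these lists were called in place of 38.

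Of 12 ubiquitin E1 and E2 enzymes, which hand ubiquitin to the ligases, 3 rose in naive and 2 in efferocytic macrophages (16.7%), the latter near the background. Ube2l6, the E2 of the ubiquitin-like ISG15, rose by 2.84 ± 0.22, and the E1 enzyme Uba1 by 0.74 ± 0.17, a call that was lost with quantile scaling (0.08, adjusted p = 0.772), with equal totals (0.34, 0.168), in a fit of only the groups compared (0.0654) and without either Ctrl replicate or LPS replicate 1 (0.103, 0.0521 and 0.0640). A list of 11 genes joined the KRAB co-repressor complex that works with Trim28 with the DNA methyltransferase Dnmt1 and its partner Uhrf1. Of these 11 genes, 0 rose. In naive macrophages 3 fell and 8 were not called, in efferocytic ones 2 and 9, with a median of -0.43 and -0.38. The largest falls were those of Dnmt1 (-1.71 ± 0.18) and Uhrf1 (-1.51 ± 0.23). Of 7 deubiquitinases, which remove ubiquitin, 2 rose in each, Usp18 (4.19 ± 0.22) and Tnfaip3 (3.77 ± 0.29). In Eff against Ctrl and in LPSEff against LPS 0 genes of these lists were called by limma.

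The 25 members that were not tested had means up to 7.76 normalized counts (Trim71), against 10.8 for Trim9, the lowest member that was tested. They are Trim34b and Trim69 of the interferon list, Trim31, Trim38 and Trim40 of the signalling list, Trim66, Trim71, Trim54, Trim55, Trim63, Trim67 and Trim72, and Trim10, Trim15, Trim42, Trim43a, Trim43b, Trim43c, Trim50, Trim52, Trim58, Trim60, Trim61, Trim75 and Trim80. The highest value of any was 19.4, for Trim72 in LPS replicate 1, where it had 15 reads. Trim69 had 0 and 1.74 in Ctrl and 16.8 and 3.05 in LPS. A limma fit of all 45925 genes with a mean above 0 tested all 68 members. It called 15 higher and 6 lower in LPS against Ctrl. At an unadjusted p under 0.05 there were 32 of 68, and the share of all genes at that p is not given here. Over all 45925 genes that fit called 1768 higher and 1407 lower. Trim43c was the 1 of these 25 that it called (adjusted p = 0.0125), and it is named after its values were seen. It had 0 and 0 normalized counts in Ctrl and 7.76 and 6.09 in LPS, from 6 reads in each LPS sample, and shares 42.1% of its 50-base windows with other genes. A gene low in Ctrl could pass the filter through its stimulated samples, as Trim5 did, so the tested members are not a neutral sample of the family.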

How the data were processed

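The deposited signal is a normalized count per gene, which the authors made, per the submitters' notes, by trimming reads with cutadapt, removing ribosomal RNA with Bowtie2, aligning to the mouse build mm39 with STAR, counting with htseq-count at its default settings and dividing by DESeq2 size factors. Libraries were made from rRNA-depleted total RNA. Dividing each column by its smallest value above 0 gave whole reads for 100% of values within 0.01 reads, 3481288 to 12020918 a sample. GENCODE named 54749 of 55359 genes (98.9%). Genes with a mean of at least 10 over the 8 samples were tested, as log2 of normalized count + 1, with limma 3.58.1 (R 4.3.3) in 1 fit of all samples, 2-sided, with p-values adjusted by the Benjamini-Hochberg method over 16309 genes in each comparison. edgeR 4.0.16 and DESeq2 1.42.0 were run on the recovered reads and called 3991 and 3954 genes in LPS against Ctrl, 3509 and 3519 in LPSEff against Eff, 14 and 204 in Eff against Ctrl, and 126 and 368 in LPSEff against LPS, beside 3910, 3213, 41 and 126 with limma.

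Named with values were the 10 largest called changes of members in each response to LPS/IFNγ, members called in the other comparisons or the 3 with the smallest p where there were none, the 5 highest members per kb in Ctrl, tested members of the largest cluster and of the interferon, signalling and chromatin roles, the 2 largest called rises and falls of each other list, and cell type markers. The members and lists were chosen with earlier results of these data known. Floors cover counting error only.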

Additional observations from a re-analysis of the deposited data

How the results depend on the processing

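The alternatives were pseudocounts of 0.5 and 5, other filters on the mean, fits of only the groups compared, quantile scaling, equal totals, edgeR, DESeq2, a replicate block, and leaving out each replicate in turn, where the lone sample is assumed to vary like the other groups. For 65 gene results, nearly all of them calls, there were 644 values under alternatives other than leaving out a sample. Of these 616 kept their direction and side of the threshold, 27 lost the call, 1 gained it and 0 reversed. Members that were not called, and so are mostly not among the 65, also gained calls, with the replicate block and with equal totals above all. Of 520 values with 1 sample left out, 443 kept it and 77 lost the call. The causes were not tested.

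With the replicate number of the sample names as a replicate block, 28 members were called in LPS against Ctrl in place of 22, 27 in LPSEff against Eff in place of 19, 1 in Eff against Ctrl in place of 0 (Trim30d, adjusted p = 0.0413), 2 in LPSEff against LPS in place of 1, and 0 in the interaction. Over all genes the block gave 6717, 6033, 436 and 1137 calls. Across genes, which are not independent, the differences of replicate 1 from replicate 2 correlated between groups at r = 0.404 to 0.595. The labels do not say that equal numbers are pairs. Fits of only the groups compared called 0 members in LPSEff against LPS, and gave 9 genes in Eff against Ctrl and 66 in LPSEff against LPS. Without the largest genomic cluster, 11 members were called in LPSEff against Eff, since its 8 are then not counted. Trim17 in LPS against Ctrl was lost with 5 of these alternatives, such as DESeq2 (adjusted p = 0.0716; over its alternatives up to 0.105).

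With 1 replicate left out, 15 to 22 members were called in LPS against Ctrl, 13 to 19 in LPSEff against Eff, 0 to 1 in LPSEff against LPS, 0 in Eff against Ctrl and in the interaction, and 24 to 36 genes of the other lists in place of 38. Over all genes, 2076 to 3562, 1567 to 3407, 0 to 45 in Eff against Ctrl and 0 to 84 in LPSEff against LPS were called. An alternative chosen after seeing the data, without members that share over 10% of their 50-base windows with another gene, left 18 members called in LPS against Ctrl and 15 in LPSEff against Eff.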
